A study of Mus musculus with 8 samples.

Results

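The promoters of non-coding RNA (ncRNA) genes were examined for acetylation of histone H3 at lysine 27 (H3K27ac) in microglia, the resident macrophages of the brain, with and without the Grn gene. The set was defined by annotation alone. It took every listed region on chromosomes 1 to 19 whose centre lay at most 1000 bp from the nearest annotated start, where that start belonged to a gene typed as ncRNA and the region's detailed annotation did not open with CpG. These criteria gave 1578 of the 129304 listed regions, at 1013 genes. A further 31 ncRNA promoter regions at 28 genes carried a CpG island annotation and were kept apart.

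Nuclei came from brains of C57BL/6 mice aged 2 years, of genotype WT or GrnKO. Progranulin, the product of Grn, is secreted and also delivered to lysosomes. Per the labels' protocols, sorting kept nuclei with PU.1, a transcription factor of myeloid cells, and without OLIG2 or NEUN, and each replicate pooled nuclei of 2 mice. Each genotype had 2 replicates, each with an H3K27ac library and an input library of sonicated chromatin without immunoprecipitation. The labels do not say whether the knockout was constitutive or which allele was used, so the groups are named here as the labels name them.

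ncRNA genes give rise to transcripts that are not translated. They include long ncRNAs, some of which act on neighbouring genes, antisense transcripts that start opposite a coding gene, host transcripts of small nucleolar RNAs, and microRNA hairpins, which are cut into short RNAs that repress messenger RNAs by pairing through a seed at bases 2 to 8. H3K27ac is deposited at active promoters and enhancers by the acetyltransferases p300 and CBP. At a microRNA entry the annotated start is that of the hairpin, which can lie far from the start of the primary transcript, so acetylation there can belong to a host gene or to an enhancer.

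Promoter sequences of 4 genes are shown because results below turn on their regions. They are RefSeq windows of build GRCm38.p6, from 250 bases before to 50 bases after an annotated start, and were available for 645 of the member genes at the start the table implies. Capitals mark matches, on either strand, to 3 cores that were searched: AGGAAGT for PU.1, TCACGTG for MITF and TFE factors (regulators of lysosomal genes), and TGANTCA for AP-1 (FOS and JUN dimers). No core occurred in the Gm3716 window.
5830416I19Rik, chr5:64044723-64045022, plus strand: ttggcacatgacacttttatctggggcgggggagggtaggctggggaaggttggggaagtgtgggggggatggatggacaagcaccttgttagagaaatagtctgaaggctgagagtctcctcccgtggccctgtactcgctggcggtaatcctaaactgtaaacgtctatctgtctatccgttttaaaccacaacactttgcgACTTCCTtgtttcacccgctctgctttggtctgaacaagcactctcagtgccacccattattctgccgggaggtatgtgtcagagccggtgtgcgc
AI427809, chr4:53270183-53270482, minus strand: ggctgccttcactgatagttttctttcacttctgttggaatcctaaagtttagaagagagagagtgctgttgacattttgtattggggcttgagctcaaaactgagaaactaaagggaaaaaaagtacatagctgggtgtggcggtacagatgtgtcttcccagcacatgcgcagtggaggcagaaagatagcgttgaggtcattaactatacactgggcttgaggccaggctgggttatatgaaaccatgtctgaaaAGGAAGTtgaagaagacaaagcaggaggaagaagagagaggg
Gm14005, chr2:128429302-128429601, minus strand: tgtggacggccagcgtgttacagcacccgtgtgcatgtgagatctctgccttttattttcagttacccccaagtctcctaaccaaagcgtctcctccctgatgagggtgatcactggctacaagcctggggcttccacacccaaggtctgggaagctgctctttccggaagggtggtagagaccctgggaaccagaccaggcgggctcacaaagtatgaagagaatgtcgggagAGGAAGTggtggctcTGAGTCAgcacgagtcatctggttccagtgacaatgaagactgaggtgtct
Gm3716, chr5:64610650-64610949, minus strand: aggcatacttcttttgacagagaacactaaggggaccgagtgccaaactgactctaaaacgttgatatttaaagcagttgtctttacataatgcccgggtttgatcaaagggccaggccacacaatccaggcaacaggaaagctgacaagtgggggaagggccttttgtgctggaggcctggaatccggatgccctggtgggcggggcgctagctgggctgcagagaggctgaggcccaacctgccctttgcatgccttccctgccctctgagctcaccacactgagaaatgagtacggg

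A promoter window was available for 30 of 51 genes with a region higher in GrnKO and for 14 of 20 with a lower region. The AP-1 core was present in 8 of the 30 (26.7%) and in 0 of the 14. It was present in 8.24% of the 461 tested ncRNA promoters and in 7.84% of all 31396 RefSeq promoters of chromosomes 1 to 19. The windows below are centred on the core in those 8 promoters. In 6 of the 8 the window lay inside a region that was itself higher, the exceptions being Gm14005 and D730003I15Rik. These matches describe letters, not bound sites.
D930048N14Rik, chr11:51650825-51650865, plus strand: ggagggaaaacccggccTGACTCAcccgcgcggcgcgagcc
9930111H07Rik, chr1:85775234-85775274, plus strand: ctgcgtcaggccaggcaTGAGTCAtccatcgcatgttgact
E230016M11Rik, chr6:67036515-67036555, plus strand: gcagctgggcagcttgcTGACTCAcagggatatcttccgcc
Dnmt3aos, chr12:3862420-3862460, minus strand: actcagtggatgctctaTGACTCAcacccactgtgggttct
4931406H21Rik, chr14:25586695-25586735, plus strand: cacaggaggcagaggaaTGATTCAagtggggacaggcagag
Gm7854, chr5:43235559-43235599, minus strand: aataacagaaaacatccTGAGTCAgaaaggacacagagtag
Gm14005, chr2:128429329-128429369, minus strand: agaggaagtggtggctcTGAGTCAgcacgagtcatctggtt
D730003I15Rik, chr1:191224426-191224466, plus strand: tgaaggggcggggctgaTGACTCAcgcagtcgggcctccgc

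The PU.1 core occurred in 5 of the 30 promoters of genes with a higher region (16.7%), in 1 of 14 with a lower region (7.14%), in 10.8% of tested ncRNA promoters and in 9.37% of all RefSeq promoters. The MITF and TFE core occurred in 3 of 30 (10.0%), 0 of 14, 7.16% and 3.73%. The median GC content of the 645 ncRNA promoters was 57.3%, against 57.0% for coding gene promoters. The observed to expected CpG ratio exceeded 0.6 in 52.9% of them although regions annotated as CpG were left out, and 1137 of the 1578 members carried the promoter annotation of the deposited table. Of promoters of genes with a higher region 30.0% passed that ratio, of those with a lower region 35.7%, and of all tested ncRNA promoters 59.9%.

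The mature microRNAs of the 3 microRNA genes with the smallest p in each direction are shown with the seed in capitals. Of 17 microRNA genes with a changed region, 16 had a printable RefSeq mature sequence, and no seed was shared between any 2 of these 16 genes. The first 3 genes had higher regions in GrnKO and the other 3 lower regions.
mmu-miR-6985-5p: uACUGAGGgguggcugcuaugu
mmu-miR-6985-3p: cUCACAGCcaccuccucacag
mmu-miR-5131: cGGCGCCCcacggagccccgagc
mmu-miR-1934-5p: uCUGGUCCccugcuucguccucu
mmu-miR-1934-3p: aGGAUGACgguggggcugguga
mmu-miR-1953: uGGGAAAGuucucaggcuucug
mmu-miR-5130: cUGGAGCGcgcgggcgaggcaggc
mmu-miR-6353: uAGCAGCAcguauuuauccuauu

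The seed of mmu-miR-6353, AGCAGCA, also occurs at 10 other microRNA genes in RefSeq, including Mir15a and Mir16-1, whose products restrain cell division. One of the 10, Mir195a, was itself a member: its region held 2.35 and 11 scaled tags in WT and 2.26 and 5.54 in GrnKO (adjusted p = 0.828, limma). The seed of mmu-miR-6985-3p, UCACAGC, was shared with Mir673 only.

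The 4 H3K27ac libraries held 15491642.5 to 20030832 tags and the 4 input libraries 4078179 to 14415969. Values are scaled tags, that is, tags in an 800 bp region per 10000000 tags of the library, divided here by a TMM factor that adjusts for differences in composition between libraries. WT replicate 1 stood apart, with 49.4% of its tags in the listed regions against 63.3% to 65.7% in the other 3. At the Grn start itself, the region centred 13 bp before it held 357 and 300.1 scaled tags in WT and 0 in both GrnKO libraries, as the labels imply. The 8 defining microglial markers, such as Cx3cr1 and P2ry12, all had promoter signal, with a summed level of 4061 and 4676 scaled tags in WT and 3630 and 3750 in GrnKO. Of 6 neuronal markers 2 had a region, with sums from 0 to 3.91, and neither of 2 T cell markers had one. Of 6 oligodendrocyte lineage markers 5 had a region (sums 52.4 to 81.7), and of 4 astrocyte markers 2 (sums 0.262 to 15.3). Within the oligodendrocyte sum, Mog held 54.0 and 47.7 in WT and 27.4 and 25.15 in GrnKO. Mbp went the other way, with 19.9 and 11.3 in WT and 30.55 and 26.3 in GrnKO. Among 3 endothelial markers, Flt1 alone had a region, at 7.04 and 11 scaled tags in WT and 60.0 and 62.5 in GrnKO. Of 5 markers of border macrophages and monocytes, Mrc1 and S100a8 had regions, with a summed level of 39.5 and 89.3 in WT, and in GrnKO 106 and 102. The part of these cell types in the changes below was not tested. In a bulk sample, a change in the number of cells of a type and a change in acetylation per cell cannot be told apart.

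The ncRNA promoters carried substantial acetylation. The median level over members was 22.1 and 20.95 scaled tags for the WT pair and 24.04 and 23.9 for the GrnKO pair, while the medians of the input libraries were between 0 and 0.69. Coding gene promoters, by the same distance rule, had medians of 25.8 and 24.9 in WT, and in GrnKO 26.3 and 25.8. The spread among members was wide, with the WT mean at a lower quartile of 4.01 scaled tags, an upper quartile of 89.9 and a highest value of 928. In 6.84% to 11.4% of members a given H3K27ac library held no tag. A count of 0 allows up to 3 tags, which is 1.5 to 1.94 scaled tags before the TMM factor, covering counting error only.

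**Figure D1:**
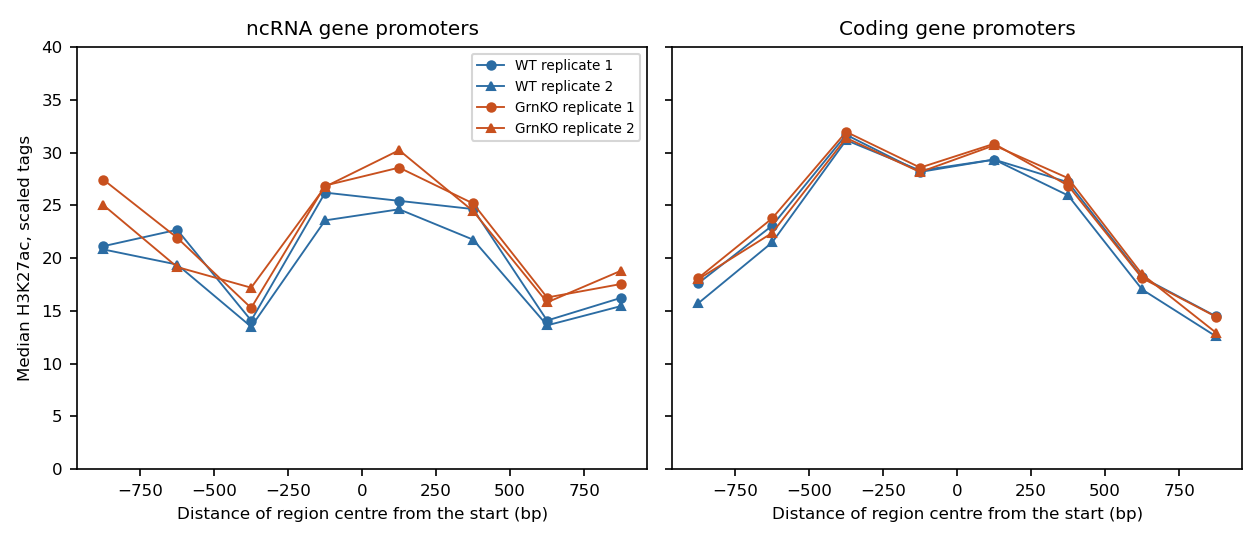
Median H3K27ac in scaled tags (y axis) of promoter regions in 250 bp bins of distance from the annotated start (x axis; negative is upstream), for 1578 ncRNA promoter regions and 23182 coding promoter regions; each line is 1 library. ncRNA promoters were highest within 250 bp of the start in all 4 libraries.

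For regions centred 250 to 500 bp upstream, the member median was 14.1 and 13.5 scaled tags in WT and 15.3 and 17.2 in GrnKO. For coding promoters, that bin held the highest medians, from 31.2 to 32.0. In the 250 bp after the start the ncRNA medians were 25.4 and 24.6 in WT, against 28.6 and 30.2 in GrnKO, and the coding medians 29.3 and 29.3, against 30.8 and 30.7. In this bin the genotypes did not overlap in either set. They did overlap in other bins, such as the coding bin 250 to 500 bp upstream and the ncRNA bin 250 to 500 bp downstream. These medians are descriptions, and many regions of a gene overlap and share tags.

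The highest mean signal belonged to Btbd19, E230029C05Rik, Bach2os, Mir7687, Dleu2 and 0610039K10Rik. The Btbd19 region, 72 bp before a start that RefSeq assigns to a protein-coding gene, held 839 and 1016 scaled tags in WT and 996 and 1049 in GrnKO. Bach2os, antisense to the gene of the transcription factor Bach2, held 762 and 646 in WT and 745 and 733 in GrnKO. Neither passed the test (adjusted p = 0.428 and 0.741, limma). E230029C05Rik held 916 and 895 scaled tags in WT and 707 and 781 in GrnKO, with both GrnKO libraries below both WT libraries (log2 change -0.28 ± 0.10 SE, adjusted p = 0.0868, limma). Of these 6 genes, only 0610039K10Rik passed the threshold.

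Tags in all members together made up 0.898% and 1.16% of the library in WT and 1.20% and 1.21% in GrnKO. The GrnKO mean was higher by 0.177 percentage points (exact permutation test, two-sided, p = 0.333, the smallest that 2 libraries against 2 allow). Without WT replicate 1 the difference was 0.046. As a share of tags in listed regions, members held 1.82% and 1.83% in WT and 1.86% and 1.84% in GrnKO.

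Each region was tested with limma on log2(scaled tags + 1) over the 4 H3K27ac libraries, fitted to all regions that passed a filter on low tags, with p-values adjusted by the Benjamini-Hochberg method over the whole table. Of the 1578 members 1143 (72.4%), at 707 genes, passed the filter, which sets no condition on the direction of a change but keeps a region that is high in 1 genotype only. H3K27ac was higher in GrnKO at 70 of them and lower at 25, at an adjusted p under 0.05. That is 8.31% of tested members, against 9.71% of all 80728 tested regions and 5.08% of tested coding promoters. In the higher direction the share was 6.12% of members against 6.8% of all regions, and in the lower direction 2.19% against 2.92%. The median log2 change of tested members was 0.02, and that of the whole tested table lay at -0.002.

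Each library was also left out in turn. A genotype then has 1 library, so the spread rests on the pair of the other genotype and on its moderation across regions, and the lone library is assumed to vary like that pair. A call kept in such a fit is a description and no further support for it. Without WT replicate 1 the count of changed members was 151, without WT replicate 2 it was 184, without GrnKO replicate 1 it was 14 and without GrnKO replicate 2 it was 22. Of the 95 calls, 81 were lost without GrnKO replicate 1, 73 without GrnKO replicate 2, 10 without WT replicate 1 and 8 without WT replicate 2. With the authors' scaling in place of TMM, 81 were higher and 5 lower (94.2% of calls higher, against 73.7%). Over all called regions the same share was 95.2%, against 70.0% with TMM. These 5 lower regions were at Mir1953, Gm3716 and 2610035D17Rik, and the Mir1953 region 230 bp downstream of the start was not among them. That scaling moved the median of the whole tested table to 0.22 and that of members to 0.24. GrnKO values lay above both WT values at 328 tested members (28.7%, against 27% of all regions) and below both at 276 (24.1%, against 25.6%). None of the 21 tested regions annotated as CpG island differed in limma, edgeR or DESeq2 (0 in each). Of all tested regions 9.71% differed in limma. Among these 21, 3 had an unadjusted p under 0.05, and 1 differed with the authors' scaling.

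**Figure D2:**
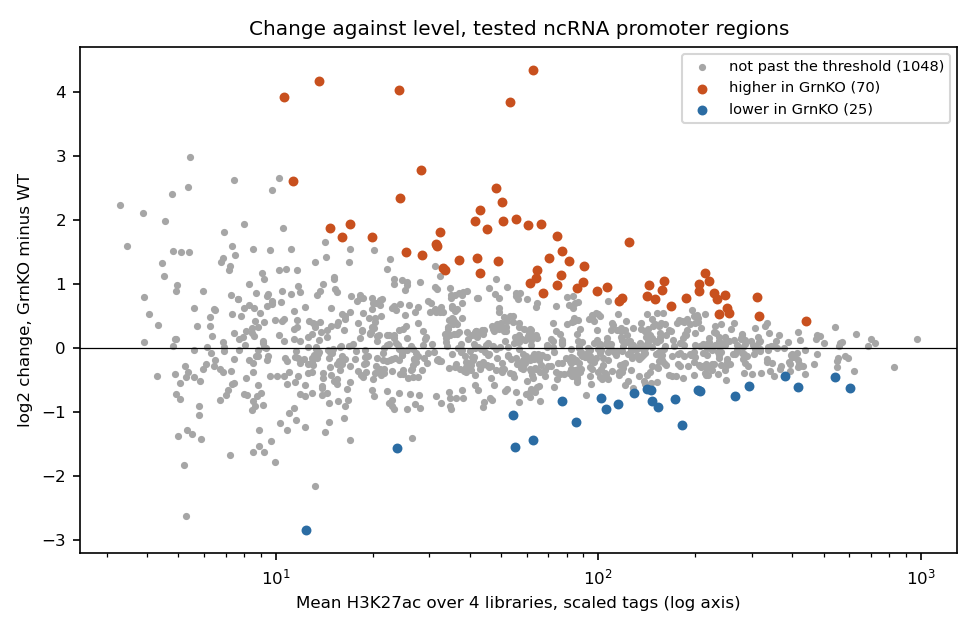
Change in H3K27ac between genotypes (y axis, log2 of GrnKO over WT) against mean level over the 4 libraries (x axis, scaled tags, log axis) for the 1143 tested ncRNA promoter regions; orange points are the 70 higher and blue points the 25 lower regions. Higher calls extend to a log2 change of 4.35, and with this scaling 15 of the 25 lower calls lie in the strongest of 4 bins of mean level.

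The 95 changed regions belonged to 71 genes, 51 with higher and 20 with lower regions, and no gene had both. At 21 genes 2 or more regions changed, which made up 45 of the 95, and neighbouring regions of a gene often overlap. Changes of 2-fold or more were found at 46 higher (4.02%) and 7 lower members (0.612%), against 5.22% and 1.05% of all tested regions. When tested members were cut into 4 equal bins of mean signal, from weakest to strongest, there were 1, 1, 8 and 15 lower regions. The corresponding numbers of higher regions were 6, 20, 24 and 20. In the strongest bin 5.24% of members were lower, against 8.19% of all tested regions at that signal, and in the weakest 0.351% against 0.392%. This gradient depended on TMM: with the authors' scaling 1, 0, 3 and 1 members were lower.

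**Figure D3:**
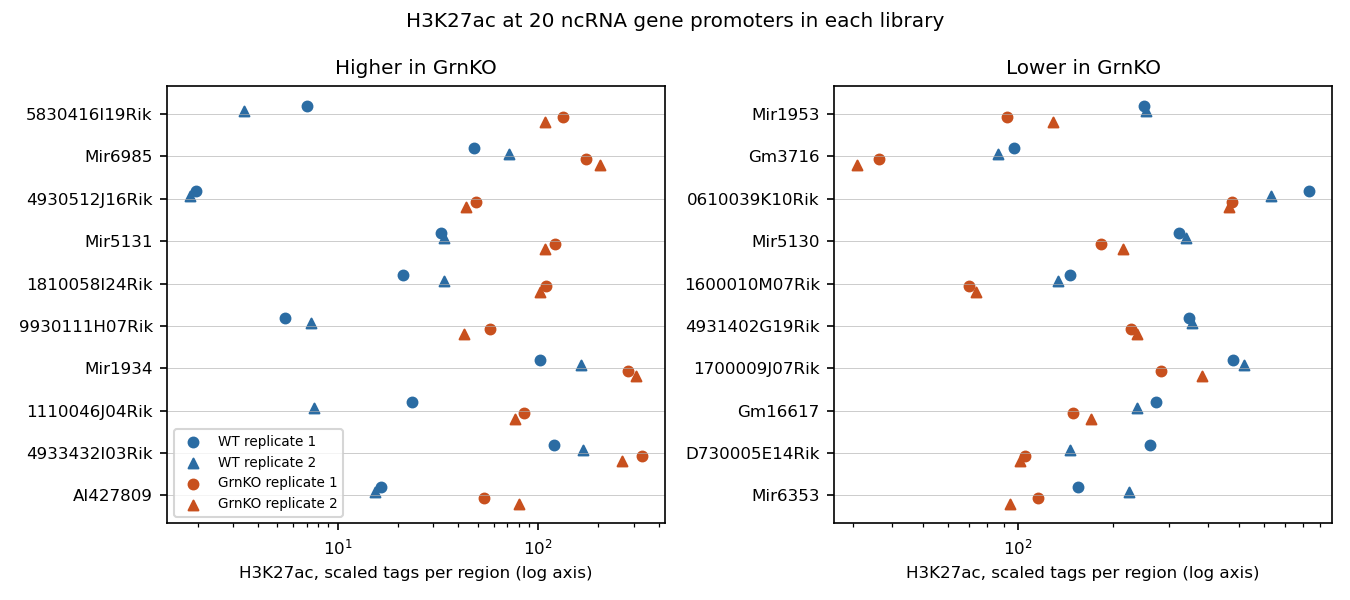
H3K27ac in scaled tags (x axis, log axis) in each of the 4 libraries at the 10 ncRNA genes with the smallest p in each direction, 1 region per gene. Genes were picked for a lack of overlap between genotypes, so the separation in each row follows from the choice. At 5830416I19Rik, 4930512J16Rik and 9930111H07Rik the WT values are below 10.

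The smallest p among members was at 5830416I19Rik, a long ncRNA on chromosome 5 whose promoter is printed above. The region at chr5:64045159-64045959, in an intron 586 bp downstream of the start, held 7.04 and 3.40 scaled tags in WT and 133 and 109 in GrnKO. An overlapping region at the start held 3.52 and 9.69 in WT and 92.2 and 108 in GrnKO. WT was low in both and GrnKO stood at a level above the upper quartile of members. The log2 changes were 4.35 ± 0.41 SE and 3.86 ± 0.44 SE (adjusted p = 7.17e-06 and 2.96e-05, limma), and both passed the threshold in each fit with 1 library left out. Over the other fits the first log2 change ran from 3.64 to 4.64 and the second from 3.23 to 4.05; the second was 3.24 without WT replicate 1 and 4.48 without WT replicate 2. Neither of the 2 other tested regions within 20 kb changed. The nearest coding gene, Pgm2, lay 47360 bp from the region.

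4930512J16Rik, on chromosome 6, rose with its whole surroundings. Its promoter region held 1.96 and 1.83 scaled tags in WT, from 2.5 and 3.5 tags, and 49.2 and 43.6 in GrnKO (log2 change 4.03 ± 0.59 SE, adjusted p = 0.000246, limma). With so few WT tags the size depends on the fit, from 2.90 with a pseudocount of 5 to 4.63 with DESeq2. All 12 other tested regions within 20 kb were higher as well. The nearest coding gene body was Plxna1, a semaphorin receptor, 30229 bp away. Without GrnKO replicate 1 the adjusted p was 0.0793.

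D930048N14Rik, on chromosome 11, went from next to no tags to a clear signal inside N4bp3, 613 and 202 bp from the N4bp3 start. Its 2 overlapping regions held no tag in WT replicate 1 (0), while WT replicate 2 had 2.5 and 2.0, against 43.0 and 35.5 tags in GrnKO replicate 1 and 63.0 and 46.0 in GrnKO replicate 2. The adjusted p values were 0.00342 and 0.00908 (limma), and 0.205 to 0.318 without either GrnKO library. With so few WT tags the size of the change is not determined. Its promoter holds an AP-1 core, shown above, and so does that of 9930111H07Rik. The latter, on chromosome 1, held 5.47 and 7.33 scaled tags in WT and 57.4 and 42.7 in GrnKO (log2 change 2.78 ± 0.46 SE, adjusted p = 0.000799, limma, and 0.125 without GrnKO replicate 1).

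A pair of macrophage long ncRNAs with known targets had higher acetylation. AI427809, named Mexis in RefSeq, supports expression of the cholesterol exporter gene Abca1 in macrophages. Its start region held 24.6 and 14.4 scaled tags in WT and 70.4 and 72.0 in GrnKO, and a second member region, at another annotated start, 16.4 and 15.4 in WT and 54.0 and 80.5 in GrnKO. Both GrnKO libraries exceeded both WT libraries in each. Its log2 changes were 1.86 ± 0.35 SE and 1.98 ± 0.36 SE (adjusted p = 0.00219 and 0.00163, limma), and without GrnKO replicate 2 the p was 0.0786 and 0.147. Without GrnKO replicate 1 it was 0.0828 and 0.0299. All 4 and all 3 other tested regions within 20 kb of them were higher too. The Abca1 gene body lay 104785 bp from the second region.

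Gm14005, named Morrbid in RefSeq, restrains the pro-apoptotic gene Bcl2l11 and prolongs the life of short-lived myeloid cells. The region 630 bp downstream of its start held 104 and 117 scaled tags in WT and 197 and 183 in GrnKO, and the region 625 bp upstream 60.2 and 56.8 in WT and 110 and 118 in GrnKO. They changed by a log2 of 0.78 ± 0.19 SE and 0.95 ± 0.23 SE (adjusted p = 0.0131 and 0.0150, limma), which became 0.269 and 0.195 without GrnKO replicate 1 and 0.138 and 0.238 without GrnKO replicate 2. At the start itself the values were 183 and 167 in WT, against 232 and 232 in GrnKO, also without overlap, but the adjusted p was 0.13 (log2 change 0.41). The flanks of this promoter thus passed the test where its centre did not, and the difference between them was not tested.

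The region 987 bp from the Mir1934 start was annotated at a transcript end. It lay 183 bp from the gene body of Cd68, a lysosomal glycoprotein of macrophages. The nearest coding start in the promoter table, that of Mpdu1, was 1381 bp away. The region held 103 and 164 scaled tags in WT and 282 and 308 in GrnKO. Its log2 change was 1.18 ± 0.20 SE (adjusted p = 0.000935, limma), and it passed in each fit with 1 library left out. 4933432I03Rik lay 12708 bp from Acod1, which encodes the enzyme that makes itaconate, and held 120 and 167 in WT and 332 and 264 in GrnKO. Its log2 change was 1.06 ± 0.19 SE (adjusted p = 0.00142, limma, and 0.0988 without GrnKO replicate 1). Gm12596, 36277 bp from the glucosylceramide synthase gene Ugcg, held 7.04 and 9.95 in WT and 39.6 and 23.3 in GrnKO. Its adjusted p was 0.0345 (limma), or 0.567 without GrnKO replicate 1 and 0.17 without GrnKO replicate 2. Among lower regions, Gm14023, 653 bp from Ckap2l and 1728 bp from the interleukin gene Il1a, held 88.8 and 110 in WT and 54.0 and 56.3 in GrnKO (adjusted p = 0.0419, limma, and up to 0.328 with a library left out). Gm16675, 145 bp from the transcription factor gene Irf2, held 183 and 173 in WT and 104 and 124 in GrnKO (adjusted p = 0.0406, limma, and up to 0.466 with a library left out). Gm12596, Gm14023 and Gm16675 each missed the threshold with DESeq2 and without the filter, and Gm14023 and Gm16675 also with the authors' scaling. Over the other fits these genes had an adjusted p of at most 0.0678, 0.27 and 0.418. They were named after their values were seen, and no group of neighbouring genes was tested.

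Other higher starts shared a gene with a coding neighbour. Where the coding start lay within 1000 bp, acetylation of the ncRNA start and of the coding promoter cannot be told apart. Dnmt3aos, antisense to the DNA methyltransferase gene Dnmt3a, had 3 overlapping regions higher, with log2 changes of 1.29, 1.52 and 2.16. The last was 1.22 without WT replicate 1 and 3.10 without WT replicate 2, and missed the threshold without either GrnKO library (0.0595 and 0.135). The region 331 bp downstream of its start held 30.1 and 50.6 scaled tags in WT and 104 and 124 in GrnKO (adjusted p = 0.00205, limma, and 0.0846 without GrnKO replicate 2). E230016M11Rik, inside the stress gene Gadd45a, held 14.9 and 14.7 in WT and 45.8 and 50.3 in GrnKO at its own start. That region lay 822 bp from the Gadd45a start. Its log2 change was 1.64 (adjusted p = 0.0101, limma, and up to 0.226 with 1 GrnKO library left out). 1110046J04Rik, inside Serpinb6a and 328 bp from that gene's start, held 23.5 and 7.60 in WT and 85.1 and 76.8 in GrnKO. Its log2 change was 2.50 ± 0.43 SE (adjusted p = 0.000960, limma). It passed in each fit with 1 library left out, but the log2 change was 3.26 without WT replicate 1 and 1.74 without WT replicate 2. Dnmt3aos and E230016M11Rik were named after their values were seen.

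1810058I24Rik is typed as ncRNA in the deposited annotation but as protein coding in RefSeq, where it encodes a short mitochondrial peptide. Its 2 overlapping regions at and 486 bp past the start held 12.9 and 33.8 scaled tags at the start and 21.1 and 33.8 past it in the WT pair. The GrnKO pair held 88.0 and 88.6 at the start and 110 and 102 past it. The log2 changes were 2.02 ± 0.38 SE and 1.94 ± 0.30 SE (adjusted p = 0.00200 and 0.000403, limma), and without GrnKO replicate 1 the p was 0.0506 and 0.0312. The first log2 change was 1.36 without WT replicate 1 and 2.68 without WT replicate 2. In all, 8 member genes with 14 regions were protein coding in RefSeq.

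The starts of microRNA genes changed at 23 of 181 tested regions, 15 higher and 8 lower (12.7%, against 9.71% of all tested regions). Of the 23, 15 lay inside a coding gene, as did 111 of the 181 tested. Mir6985, inside the slingshot phosphatase gene Ssh3, held 48.1 and 71.5 scaled tags in WT and 174 and 204 in GrnKO (log2 change 1.67 ± 0.23 SE, adjusted p = 0.000173, limma). Mir5131, inside the phospholipase gene Ddhd1 and 543 bp from that gene's start, held 32.9 and 34.1 in WT and 122 and 109 in GrnKO. Its log2 change was 1.76 ± 0.26 SE (adjusted p = 0.000311, limma). At this distance its acetylation cannot be told apart from that of the Ddhd1 promoter. All 4 other tested regions within 20 kb of Mir5131 were higher too, whereas of the 5 near Mir6985 none was higher and 1 was lower. Both passed in each fit with 1 library left out.

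Among lower regions the smallest p was at a microRNA gene. The region 302 bp upstream of Mir1953 held 251.1 and 255 scaled tags in WT and 92.5 and 129 in GrnKO, and the region 997 bp upstream 115 and 120 in WT and 52.0 and 53.1 in GrnKO. Another region, 230 bp downstream, held 231 and 210.0 in WT, and in GrnKO 122 and 131. The WT libraries agreed closely and lay above both GrnKO libraries in all 3. The log2 changes were -1.20 ± 0.19 SE, -1.15 ± 0.24 SE and -0.80 ± 0.18 SE (adjusted p = 0.000581, 0.00434 and 0.00777, limma). The first passed in each fit with 1 library left out, and the others reached 0.0819 and 0.166 without GrnKO replicate 1 and 0.0606 and 0.0829 without GrnKO replicate 2. With the authors' scaling the region 230 bp downstream missed the threshold. The nearest coding gene was Fam110a, 1477 bp from the first region.

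Mir5130, inside Kctd12 and 754 bp from that gene's start, held 324 and 339 scaled tags in WT and 182 and 215 in GrnKO. The product of Kctd12 is an auxiliary subunit of GABA-B receptors. Mir6353, inside Pid1, held 155 and 224 in WT and 115 and 94.1 in GrnKO. Their log2 changes were -0.74 ± 0.15 SE and -0.83 ± 0.21 SE (adjusted p = 0.00481 and 0.0183, limma). Without GrnKO replicate 1 the p was 0.187 and 0.0854. That of Mir6353 was also 0.245 without GrnKO replicate 2 and 0.065 without WT replicate 2. Under the authors' scaling neither gene passed.

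0610039K10Rik was among the most acetylated of the lower promoters. This gene starts inside Serinc3, which encodes a multipass membrane protein, and its region held 836 and 630 scaled tags in WT and 476 and 466 in GrnKO (log2 change -0.62 ± 0.13 SE, adjusted p = 0.00480, limma, and 0.082 and 0.0863 without GrnKO replicates 1 and 2). With the authors' scaling this call was lost. Of 14 other tested regions within 20 kb, 8 were lower. Gm3716, whose promoter is printed above, lost signal at its start, from 90.7 and 74.1 in WT to 24.3 and 31.1 in GrnKO, and at a second overlapping region. The log2 changes were -1.54 ± 0.30 SE and -1.43 ± 0.28 SE (adjusted p = 0.00304 and 0.00288, limma), and without 1 GrnKO library each rose to 0.0781 and 0.0594. The nearest coding gene to Gm3716 was 191649 bp away.

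The 5 remaining lower genes with the smallest p changed by -0.59 to -0.95 on the log2 scale. None of them passed with the authors' scaling. 1600010M07Rik held 146 and 134 scaled tags in WT and 70.2 and 73.6 in GrnKO. D730005E14Rik, inside the antiviral deaminase gene Apobec3 and 762 bp from that gene's start, held 262 and 146 in WT and 106 and 102 in GrnKO. 4931402G19Rik, inside the calpain gene Capn3, Gm16617, inside Arhgef40, and 1700009J07Rik complete the 5, with adjusted p of 0.0128, 0.0164 and 0.0131 (limma). None of the 5 passed without GrnKO replicate 1, where the adjusted p ran from 0.124 to 0.428. Without GrnKO replicate 2 all but 1700009J07Rik missed the threshold (0.0914 to 0.14). D730005E14Rik also missed it without WT replicate 1 (0.121). A830052D11Rik on chromosome 18, inside the endocytosis gene Bin1, was lower by a smaller margin: 424 and 451 in WT and 330 and 316 in GrnKO (log2 change -0.44, adjusted p = 0.0423, limma, and 0.372 at most with a library left out). It was named after its values were seen, and it did not pass with the authors' scaling.

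A list of ncRNAs known from myeloid and immune cells was described as a group. Of 34 listed symbols 20 were members, with 41 tested regions at 19 genes. Of these regions 3 were higher in limma, at Morrbid and Neat1, beside 6.8% of all tested regions, and 3 in edgeR and 2 in DESeq2. None was lower (0 in limma, edgeR and DESeq2), beside 2.92% of all tested regions. At an unadjusted p under 0.05 in limma, 5 were higher and 2 lower. The median log2 change was 0.01. Neat1, the scaffold of paraspeckles, was higher 787 bp into its transcript, with 183 and 233 scaled tags in WT and 304 and 300.1 in GrnKO (adjusted p = 0.0389, limma), but not at its start, with 439 and 448 in WT and 382 and 398 in GrnKO (log2 change -0.18, adjusted p = 0.404). The call at the first region was lost with DESeq2, with the authors' scaling and without the filter (adjusted p of at most 0.0784). Without WT replicate 1 its adjusted p was 0.0879, and without GrnKO replicates 1 and 2 it was 0.357 and 0.287.

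Malat1, an abundant nuclear RNA of speckles, held 596 and 620 scaled tags in WT and 545 and 568 in GrnKO at its strongest region (log2 change -0.13, adjusted p = 0.540, limma). Mir142, a microRNA gene of blood lineages, held 254 and 290 in WT and 274 and 259 in GrnKO (log2 change -0.03 ± 0.15 SE). Mir146, which dampens inflammatory signalling, held 25.03 and 11 in WT and 14.4 and 15 in GrnKO (adjusted p = 0.888). Dleu2, the host of Mir15a and Mir16-1, held 748 and 649 in WT and 554 and 534 in GrnKO (log2 change -0.36 ± 0.11 SE, adjusted p = 0.0558), with no overlap between genotypes. The p of Dleu2 lay just over the threshold, and the values of Mir142 and Mir146 overlapped between genotypes.

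Of 19 imprinted or neural ncRNA symbols 7 were members, with 12 regions. Only 7 regions, at Peg13, Kcnq1ot1 and Airn, passed the filter, and none differed (0 in limma, edgeR and DESeq2, and 0 at an unadjusted p under 0.05; median log2 change -0.31). With 9.71% of all tested regions called, 0 of 7 says nothing particular of this list. Peg13, an imprinted ncRNA, held 114 and 83.8 scaled tags in WT and 74.4 and 81.4 in GrnKO at its strongest region. The regions of Mir124a-1hg and Mir9-3hg, hosts of neuronal microRNAs, held at most 2.62.

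**Figure D4:**
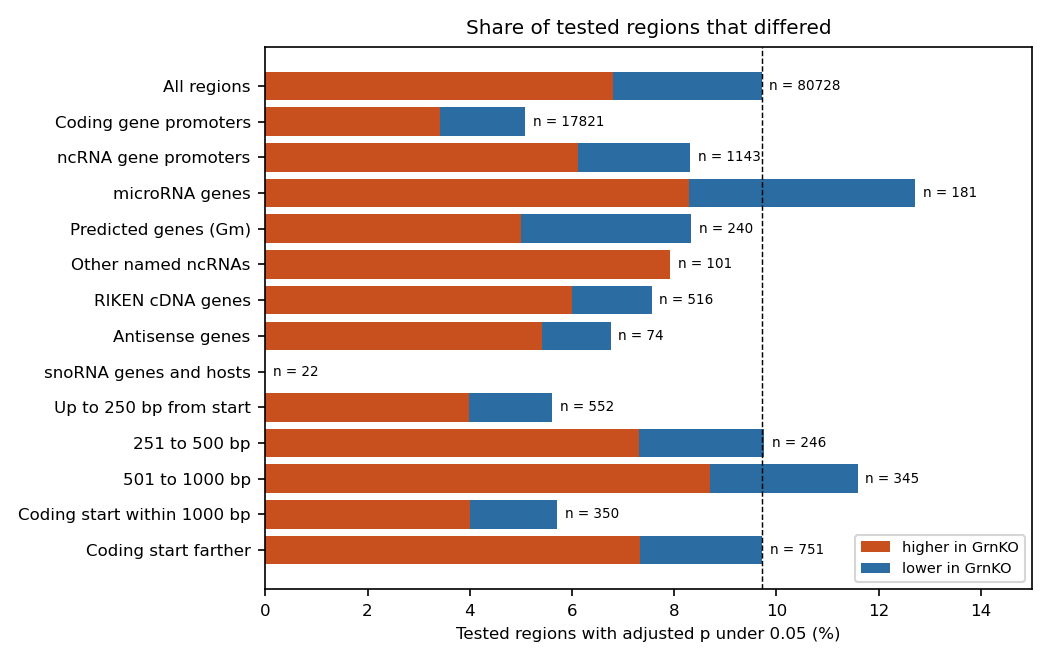
Share of tested regions with an adjusted p under 0.05 (x axis, percent), split into higher (orange) and lower (blue) in GrnKO, for all regions, coding promoters, ncRNA promoters and classes of ncRNA promoter; n is the number of tested regions and the dashed line is the 9.71% of all regions. microRNA starts reached 12.7% and the regions up to 250 bp from a start 5.62%.

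By class of ncRNA, the share of tested regions that changed was 7.56% of 516 at RIKEN cDNA genes (31 higher, 8 lower) and 8.33% of 240 at predicted genes (12 and 8). It was 6.76% of 74 at antisense and opposite strand genes (4 and 1) and 7.92% of 101 at other named ncRNAs (8 and 0). None of the 22 tested regions at small nucleolar RNA genes and their hosts differed in limma, edgeR or DESeq2 (0 in each). The limma share over all tested regions was 9.71%. Of the 22, 3 had an unadjusted p under 0.05 in limma. These shares are descriptions, and differences between classes were not tested.

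The share of changed regions is given by distance from the start, beside the 9.71% of all tested regions; differences between these bins were not tested. Up to 250 bp from it 31 of 552 tested regions changed (5.62%), beyond that and up to 500 bp 24 of 246 (9.76%), and farther out, up to 1000 bp, 40 of 345 (11.6%). By the RefSeq promoter table, a coding gene started within 1000 bp of 350 tested regions, and 20 of these changed (5.71%). Of 751 without such a start in that table, 73 changed (9.72%). The table held 16457 of 20665 coding genes of chromosomes 1 to 19, so some of the 751 can lie near a coding start it lacks. Another 42 tested regions, on the chromosome it lacks, were not placed, and 2 of them changed. Among regions with a coding start on the other strand, as at divergent promoters, 12 of 261 changed. Just inside the 1000 bp limit were 1700096J18Rik at 997 bp (98.9 and 136 scaled tags in WT, 160 and 147 in GrnKO), Mir1953 at 997 bp and 0610012G03Rik at 996 bp (13.7 and 26.98 in WT, 68.2 and 39.2 in GrnKO). Just outside were Lncpint at 1003 bp (133 and 156 in WT, 138 and 170 in GrnKO), Mir9-3 at 1005 bp and Gm10510 at 1006 bp, both at or under 3.91 in every library.

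**Figure D5:**
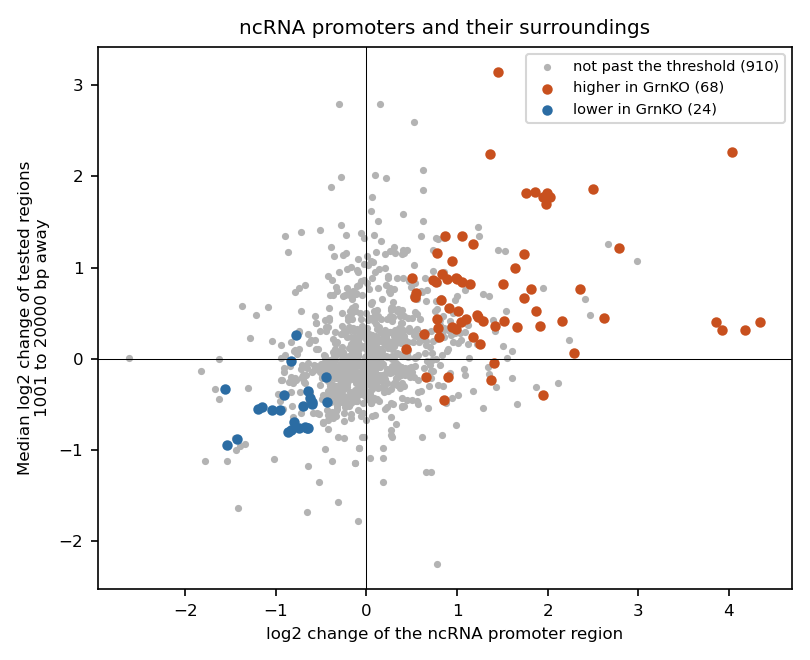
Median log2 change of the other tested regions over 1000 and up to 20000 bp away (y axis) against the log2 change of the ncRNA promoter region itself (x axis); orange and blue points are the 68 higher and 24 lower regions that have such neighbours. Higher regions lie mostly in the upper right, and a few with changes near 4 have neighbours with a median change under 0.5.

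Regions near the changed ncRNA promoters were compared with them. Of 68 higher regions with tested regions over 1000 and up to 20000 bp away, 36 (52.9%) had at least 1 that was also higher and 1 had a lower one. Of 24 lower regions with such neighbours, 17 (70.8%) had a lower one and none a higher one. Among 910 regions that did not pass the test, 15.9% had a higher and 8.90% a lower neighbour. Of 557 higher coding promoters 60.7% had a higher neighbour, and of 276 lower ones 53.6% had a lower and 7.97% a higher neighbour. The differences between ncRNA and coding promoters, and between changed and other regions, were not tested. The median over higher ncRNA promoters of the neighbours' median log2 change was 0.60, and that over lower ones was -0.54. Among the largest gains, 12 of 12 neighbouring regions were higher at 4930512J16Rik, 0 of 2 at 5830416I19Rik, 0 of 5 at D930048N14Rik and 0 of 6 at 9930111H07Rik. The median log2 change of those neighbours was 2.27 at 4930512J16Rik, 0.40 at 5830416I19Rik, 0.31 at D930048N14Rik and 1.21 at 9930111H07Rik, so a count of 0 called does not mean that the surroundings did not move.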

How the data were processed

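The deposited table lists 800 bp regions, with reproducible ATAC-seq peaks as their source per the file headers, and a signal that the authors scaled to 10000000 tags per library. Bowtie2, HOMER, DESeq2 and mm10 are named in the submitters' processing notes without roles; duplicate handling is not given in the sources used here. Gene types, distances and annotations are those of the table. Multiplying by the library totals returned whole read ends, at 2 per tag, for 100% of values, within a tolerance of 0.0041 to 0.02 read ends by library. Intervals and floors cover counting error only.

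Regions were kept by filterByExpr (edgeR 4.0.16, minimum 10 tags, by genotype). The TMM factor was 0.825 for WT replicate 1, 1.04 for WT replicate 2 and 1.08 for both GrnKO libraries. limma 3.58.1 in R 4.3.3 (lmFit and eBayes with trend) was fitted to log2(scaled tags + 1) with genotype as the only term, in the 4 H3K27ac libraries, with Benjamini-Hochberg adjustment at 0.05 over 80728 regions. This scale understates changes of low regions. The fit was tested on simulated tags. Alternatives were the authors' scaling, edgeR, DESeq2 1.42.0, no filter, a pseudocount of 5, the replicate number as a block, each library left out, a 500 bp limit and 1 region per gene. Deviations of same-numbered replicates correlated at 0.034, so the numbers were not taken as pairs.

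The text names the 10 genes per direction with the smallest p and no overlap between genotypes, the 6 with the highest mean, 2 lists of known ncRNAs and the 3 regions on each side of the distance limit; other names were picked once their values had been seen. The members and lists were chosen with earlier results of these data known. Sequences are from RefSeq tables of GRCm38.p6: 1012 of 1013 genes matched its gene table and 663 its promoter table, which holds no chromosome 18. Starts implied by the deposited table lay within 10 bp of a RefSeq start for 96.7% of the regions compared.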

Additional observations from a re-analysis of the deposited data

How the results depend on the processing

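No region that differed changed sign under any alternative. Of the 95, 52 kept their call under all 6 other fits and 9, at 7 genes, also without each library. The authors' scaling gave 5 lower members, a median log2 change of 0.24 and 1 CpG island region. Without the filter 11 members were lower and the median was 0.044, and with DESeq2 and edgeR the median was -0.001 and 0.0. At most 500 bp from the start 55 members differed (40 higher, 15 lower; median -0.002), and with 1 region per gene 52 (36 and 16); both settings count fewer regions. The replicate block gave 139 differing members, 42 of them lower, 1452 differing coding promoters and 1 CpG island region; same-numbered replicates are different mice. With each library left out in turn, which leaves 1 library in a genotype, differing members ranged from 14 to 184, higher from 12 to 135, lower from 2 to 50, the median from -0.004 to 0.044, coding promoters from 118 to 2217 and CpG island regions from 0 to 2; the cause was not tested. The difference in share of tags was 0.0234 with listed regions as the denominator, and ranged from 0.046 to 0.309 with each library left out. In the weakest of 4 bins of mean signal 7 of 285 tested members differed, and in the strongest 35 of 286; the part of depth in this was not tested.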
